A study of Mus musculus with 2 samples.

Results

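The PI3K, AKT and mTOR pathway was represented by 43 named components, of which 42 were among the 11349 genes listed, chosen by gene name and not by value. The gene not listed was Irs1, an insulin receptor substrate. Of the 42, 41 reached a mean of 1 FPKM (fragments per kilobase of transcript, scaled to the library's depth) over both libraries, and Phlpp2 did not. Expression was measured by RNA sequencing in primary macrophages from the mouse abdominal cavity, in a Trem2 knockout library (titled TREM-2-/-) and a WT library. Both were kept with TGF-β1 for 24 h, so there was no group without it. The genotype field of that library says knockdown, and its title was followed. The description of the WT library carries the tag C57, and no strain is given for the knockout. The labels name no allele, age, sex, animal number or pooling. The series title names Hspa1b and AKT in work on exosomes and kidney fibrosis. Each group had 1 library, so no test was possible, and the values describe these 2 libraries only.

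PI3K enzymes phosphorylate a membrane lipid, and the product recruits the kinases PDK1 and AKT, which then act on survival, glucose use and FOXO transcription factors. AKT also inhibits the TSC complex, which frees RHEB to activate mTORC1 on the lysosome, where the Ragulator and RAG proteins hold it when amino acids are plentiful. In macrophages the receptor TREM2 signals through the adaptor Tyrobp, which can reach this pathway through SYK and PI3K. Pathway activity is set largely by phosphorylation, which RNA levels do not measure.

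The Trem2 gene itself was at 13.7 FPKM in the knockout and 135 FPKM in WT, 9.91-fold lower (interval 9.23 to 10.7), and which exons the allele lacks is not stated in the labels. Tyrobp was at 1194 FPKM in the knockout and 1021 FPKM in WT. The depth, estimated from the steps between low values, was 12.4 M fragments in the knockout library and 13.5 M in the WT library. For the 38 components with a matched gene length this gives 41 to 3078 fragments in the knockout and 95 to 4213 in WT. Intervals below are exact 95% intervals of a ratio of FPKM for counting error only, with the deposited scaling taken as exact. Beside a fold lower they are of WT over knockout, and elsewhere of knockout over WT unless stated. The median log2 fold change of all 9962 genes at a mean of 1 FPKM or more was -0.31, so a gene at an unchanged deposited value lay above most genes.

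Promoters of 4 genes on which the results turn are shown, each as 1 window of 250 bases before and 50 after a RefSeq start (GRCm38.p6, the same genome as mm10, 5′ to 3′ on the gene's strand). Akt1 and Akt2 are the kinases of the series title, and Pik3cg and Pik3r2 were the components with the lowest values relative to WT. Capitals mark GTAAACA or its complement TGTTTAC, the core of a FOXO binding motif.
Akt1 (chr12:112674835-112675134, minus strand): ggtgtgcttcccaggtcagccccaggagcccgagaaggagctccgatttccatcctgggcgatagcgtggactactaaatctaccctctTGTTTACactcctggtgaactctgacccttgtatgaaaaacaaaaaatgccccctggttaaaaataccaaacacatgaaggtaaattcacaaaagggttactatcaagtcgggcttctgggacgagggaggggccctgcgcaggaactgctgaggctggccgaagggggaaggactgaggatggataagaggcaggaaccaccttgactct
Akt2 (chr7:27591302-27591601, plus strand): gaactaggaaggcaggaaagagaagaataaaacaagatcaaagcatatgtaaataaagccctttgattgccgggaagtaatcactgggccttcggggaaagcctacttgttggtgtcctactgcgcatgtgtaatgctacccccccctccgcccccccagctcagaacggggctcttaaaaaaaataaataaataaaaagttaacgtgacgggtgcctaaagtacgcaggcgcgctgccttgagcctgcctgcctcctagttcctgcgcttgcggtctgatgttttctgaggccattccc
Pik3cg (chr12:32208421-32208720, minus strand): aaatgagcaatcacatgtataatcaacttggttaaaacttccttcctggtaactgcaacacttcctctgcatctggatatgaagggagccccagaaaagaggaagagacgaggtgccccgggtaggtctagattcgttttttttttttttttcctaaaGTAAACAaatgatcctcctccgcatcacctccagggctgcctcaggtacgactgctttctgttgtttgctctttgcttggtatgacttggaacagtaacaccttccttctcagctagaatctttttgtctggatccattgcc
Pik3r2 (chr8:70776663-70776962, minus strand): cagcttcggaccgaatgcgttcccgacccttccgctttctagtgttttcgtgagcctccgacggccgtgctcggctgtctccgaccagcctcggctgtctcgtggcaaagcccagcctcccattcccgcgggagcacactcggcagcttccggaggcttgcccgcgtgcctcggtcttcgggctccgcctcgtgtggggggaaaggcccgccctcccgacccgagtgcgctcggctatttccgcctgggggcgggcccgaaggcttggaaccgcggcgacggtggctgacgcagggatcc
Of the 38 listed components with a promoter in the table, 3 held GTAAACA on either strand in at least 1 of their starts (Akt1, Mapkap1 and Pik3cg), against 4.05% of 27025 genes. The lysosomal gene motif TCACGTGA was found in 0 of the 38, against 1.12% of genes. Akt1, Akt2 and Pik3cg have further RefSeq starts, whose windows held no match to either motif. For Akt1 and Pik3cg the window with the match was printed. CG dinucleotides numbered 8 in the printed Akt1 window, against 42 in its other one, and 36 in that of Pik3r2. A match describes these letters only.

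Among the 41 measured components 3 lay 2-fold or more below WT after adding 1 FPKM to each value, namely Pik3r2, Pik3cg and Pik3ap1, where 13.7% of all genes did. A count of 0 lay 2-fold or more above WT, where 3.48% of all genes did. The components' median log2 fold change was -0.26, against -0.31 for all genes. By sign alone 35 of 41 were lower in the knockout, where 68.2% of all genes were, and 6 were higher, where 31.8% were. With the all-gene median subtracted, a scale called centred below, 2 were 2-fold or more higher (Akt2 and Phlpp1), where 7.66% of all genes were, and 1 was lower (Pik3r2), where 6.57% were. Of the 41, 22 lay above that median and 19 below. The share of components past 2-fold was thus under the background in each direction and on both scales.

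**Figure D1:**
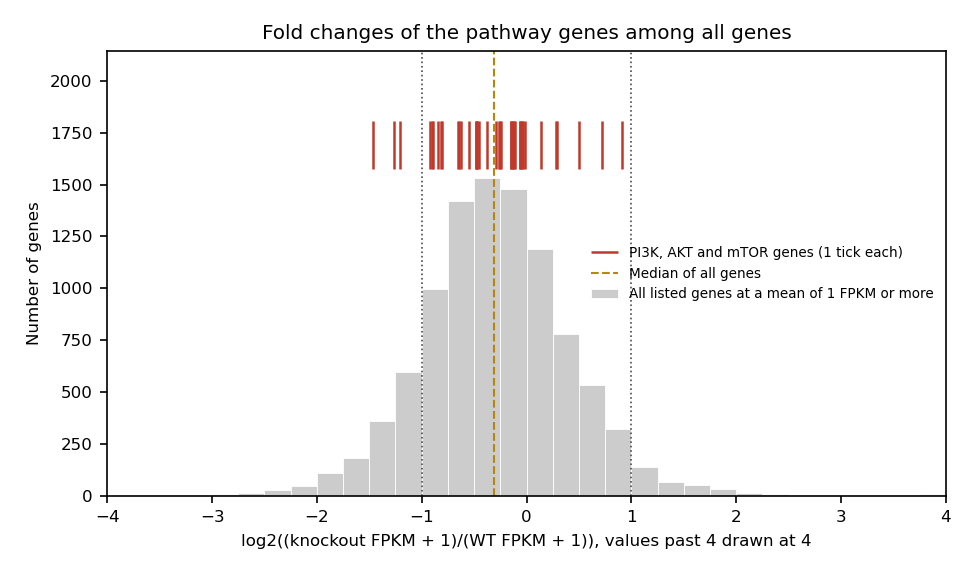
Histogram of log2((knockout FPKM + 1)/(WT FPKM + 1)) for the 9962 genes at a mean of 1 FPKM or more (y axis, number of genes), with a red tick for each of the 41 measured components, a dashed line at the median of all genes (-0.31) and dotted lines at 2-fold. The ticks run from -1.46 (Pik3r2) to 0.91 (Akt2), and 3 lie left of the lower dotted line.

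Levels spanned a wide range, from 0.394 to 78.5 FPKM in the knockout and from 0.836 to 93.5 FPKM in WT. The order of the 42 levels was similar in both (Spearman's rho 0.92 across genes of the same 2 libraries, as a description). Lamtor5 was the highest in the knockout and Rragc in WT, and Phlpp2 the lowest in both. Among components at 1 to 5 FPKM the median log2 fold change was -0.38 (15 genes), against -0.39 for all genes of that level. At 5 to 20 FPKM it was -0.25 (14 genes), against -0.34. At 20 FPKM or more it was -0.20 (12 genes), against -0.06, and 3 of the 12 lay above the median of all genes at that level.

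**Figure D2:**
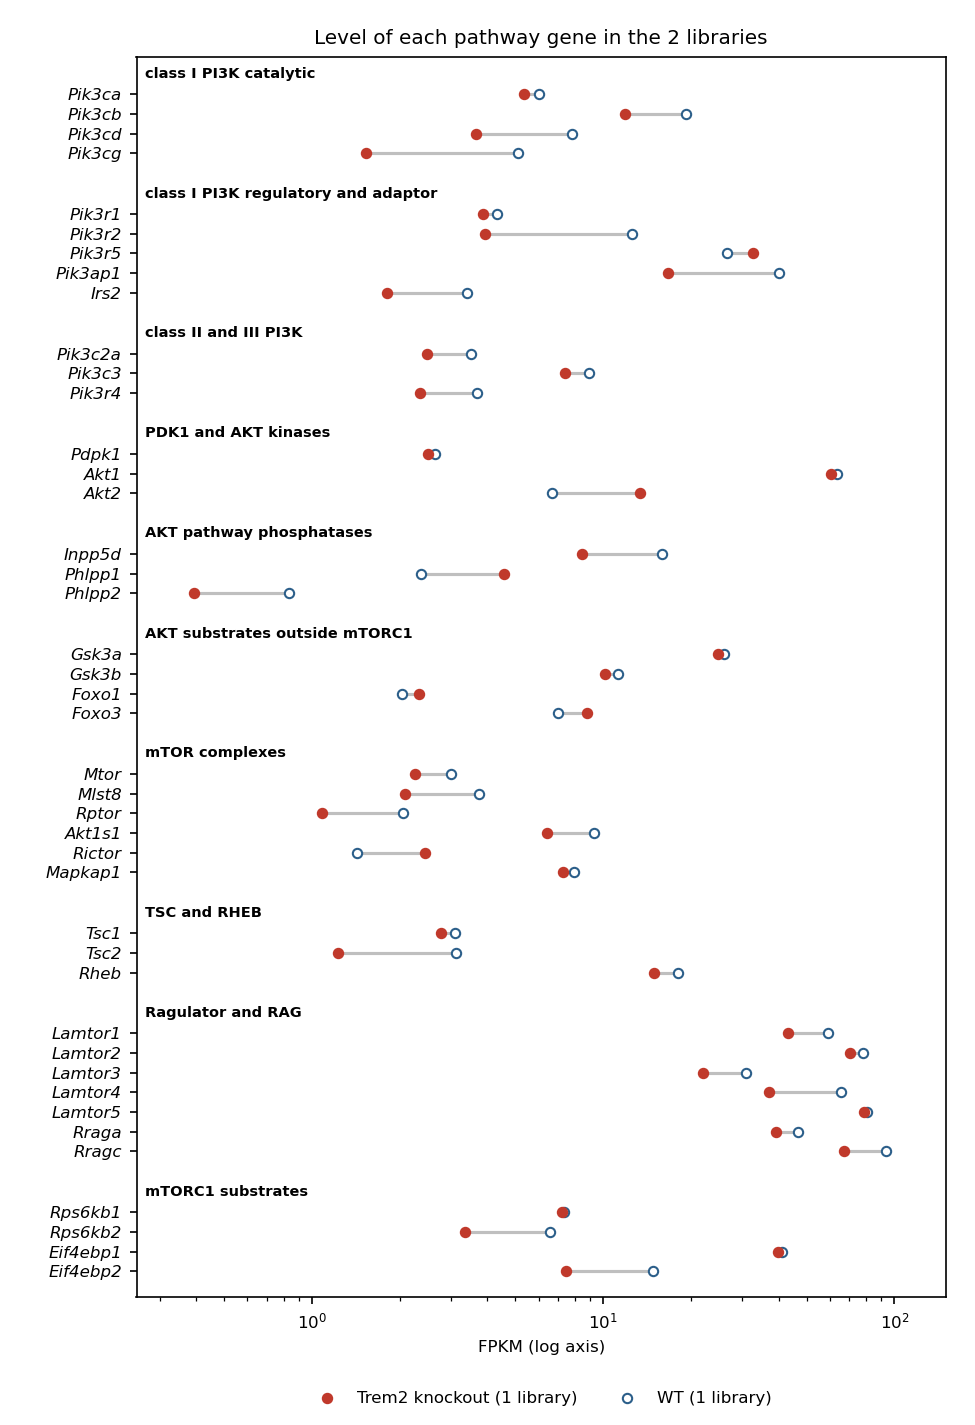
FPKM (log axis) of the 42 listed components by role, with a filled point for the Trem2 knockout library and an open point for the WT library (1 library each). The Ragulator and RAG genes lie between 22.0 and 78.5 FPKM in the knockout, and Akt2, Phlpp1, Rictor, Foxo1, Foxo3 and Pik3r5 are the genes whose filled point lies to the right.

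The class I PI3K catalytic genes were all lower in the knockout, beyond counting error at the deposited scaling, as were 57.9% of the 8664 genes with an interval, but Pik3ca lay above the all-gene median (0.16 centred). Pik3cg (chr12:32173473-32208659, minus strand), the p110γ subunit that works below G protein-coupled receptors in leukocytes, was at 1.54 FPKM in the knockout and 5.09 FPKM in WT, 3.30-fold lower (interval 2.77 to 3.96). Pik3cd, the leukocyte-enriched p110δ, was at 3.66 FPKM in the knockout and 7.84 FPKM in WT, 2.14-fold lower (interval 1.86 to 2.46). The 2 subunits typical of leukocytes thus stood furthest below WT. In bulk RNA, fewer cells of a type and less RNA per cell cannot be told apart. Pik3cb (p110β) was at 11.9 FPKM in the knockout and 19.3 FPKM in WT, 1.62-fold lower (knockout over WT 0.617, interval 0.572 to 0.666). Pik3ca (p110α) was at 5.34 FPKM in the knockout and 6.03 FPKM in WT, 1.13-fold lower (interval 1.01 to 1.26). The summed level of the 4 genes was 22.5 FPKM in the knockout and 38.3 FPKM in WT. Within this sum Pik3ca made up 23.8% in the knockout and 15.8% in WT, and Pik3cg 6.85% in the knockout and 13.3% in WT, while Pik3cb held the largest share in both (53.1% in the knockout, 50.5% in WT).

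Regulatory subunits and adaptors went both ways. Pik3r2 (chr8:70768176-70776713, minus strand), the p85β subunit that stabilises class IA enzymes, was at 3.93 FPKM in the knockout and 12.6 FPKM in WT, 3.20-fold lower (interval 2.73 to 3.75), the lowest log2 fold change of the components (-1.46). Pik3r1, which encodes p85α and shorter forms, was at 3.87 FPKM in the knockout and 4.31 FPKM in WT (interval of the ratio 0.795 to 1.02). The 2 regulatory genes were therefore at nearly the same level in the knockout, where Pik3r2 made up 50.4% of their sum, against 74.4% in WT. Pik3r5, the p101 partner of p110γ, was at 32.6 FPKM in the knockout and 26.6 FPKM in WT, 1.22-fold higher (interval of knockout over WT 1.15 to 1.30), the opposite direction to Pik3cg. Pik3ap1 (chr19:41274218-41385070, minus strand), known as BCAP, which links Toll-like and B cell receptors to PI3K, was at 16.7 FPKM in the knockout and 40.1 FPKM in WT, 2.39-fold lower. It has no interval because its gene model did not match the annotation. Irs2, the other insulin receptor substrate, was at 1.81 FPKM in the knockout and 3.41 FPKM in WT, 1.88-fold lower (interval 1.54 to 2.32).

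The cell makeup of the libraries was read from marker genes. All 10 macrophage markers examined were listed, with a summed level of 13206 FPKM in the knockout and 10709.8 FPKM in WT, of which Lyz2 made up most, and 3 of them were at least 2-fold lower (Trem2, Fcgr1 and Itgam), or 2 centred, where 13.7% and 6.57% of all genes were. Of the 10 fibroblast markers 9 were listed, summing to 1070 FPKM in the knockout and 251 FPKM in WT. Of these, 4 were at least 2-fold higher, led by Tagln (388 FPKM in the knockout, 7.91 FPKM in WT). The 1 lower was the receptor gene Pdgfra, 4.88-fold lower (interval 4.51 to 5.28), so the fibroblast markers did not move together. Centred, 5 were at least 2-fold higher and 1 lower. As given above, 3.48% of all genes were that much higher as deposited and 7.66% centred. Of 7 mesothelial markers 7 were listed, summing to 4.79 FPKM in the knockout and 17.1 FPKM in WT. The listed B cell (3 of 6), T and NK cell (3 of 8) and neutrophil (5 of 6) markers summed to 10.6, 6.25 and 27.0 FPKM in the knockout and to 9.59, 2.66 and 54.5 FPKM in WT. Dendritic (2 of 8 listed), mast (3 of 6) and endothelial (2 of 5) markers summed to 12.5, 2.67 and 1.41 FPKM in the knockout and to 12.2, 10.9 and 5.92 FPKM in WT. Defining genes such as Cd3e, Ms4a1, Ly6g, Flt3, Pecam1 and Cdh5 were not among the listed genes. The part of other cells in the pathway values was not tested.

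The kinases Akt1 and Akt2 differed from each other, with Akt1 near its WT level as deposited (-0.07, or 0.24 centred) and Akt2 above it on both scales. Akt1 (chr12:112653821-112674884, minus strand, mm10), the more abundant of the pair here, was at 60.5 FPKM in the knockout and 63.4 FPKM in WT (WT over knockout 1.05, interval 0.997 to 1.10). Akt2 (chr7:27591552-27640826, plus strand), the AKT best known for insulin-driven glucose uptake, was at 13.4 FPKM in the knockout and 6.65 FPKM in WT, 2.02-fold higher (interval 1.83 to 2.22). Akt2 was thus the component with the highest log2 fold change, 0.91 as deposited and 1.22 centred. The GENCODE annotation holds 1 named Akt2 pseudogene, whose reads could be assigned to either copy. Of the summed FPKM of Akt1 and Akt2, Akt1 made up 81.9% in the knockout and 90.5% in WT. The summed level of the pair was 73.9 FPKM in the knockout and 70.0 FPKM in WT. Pdpk1, the gene of PDK1 that phosphorylates AKT in its activation loop, was at 2.51 FPKM in the knockout and 2.64 FPKM in WT, with 1 inside its interval (0.818 to 1.10).

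The phosphatases that oppose AKT signalling also diverged. Inpp5d, the gene of SHIP1, which removes a phosphate from the PI3K product in blood cells, was at 8.45 FPKM in the knockout and 15.9 FPKM in WT, 1.88-fold lower (interval 1.73 to 2.05). Phlpp1, a phosphatase that acts on AKT itself, was at 4.55 FPKM in the knockout and 2.37 FPKM in WT, 1.92-fold higher (interval 1.62 to 2.28). Its relative Phlpp2 was at 0.394 FPKM in the knockout and 0.836 FPKM in WT, on an estimated 41 fragments in the knockout and 95 in WT, 2.12-fold lower (interval 1.46 to 3.16). The 2 PHLPP genes therefore lay on opposite sides of WT.

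**Figure D3:**
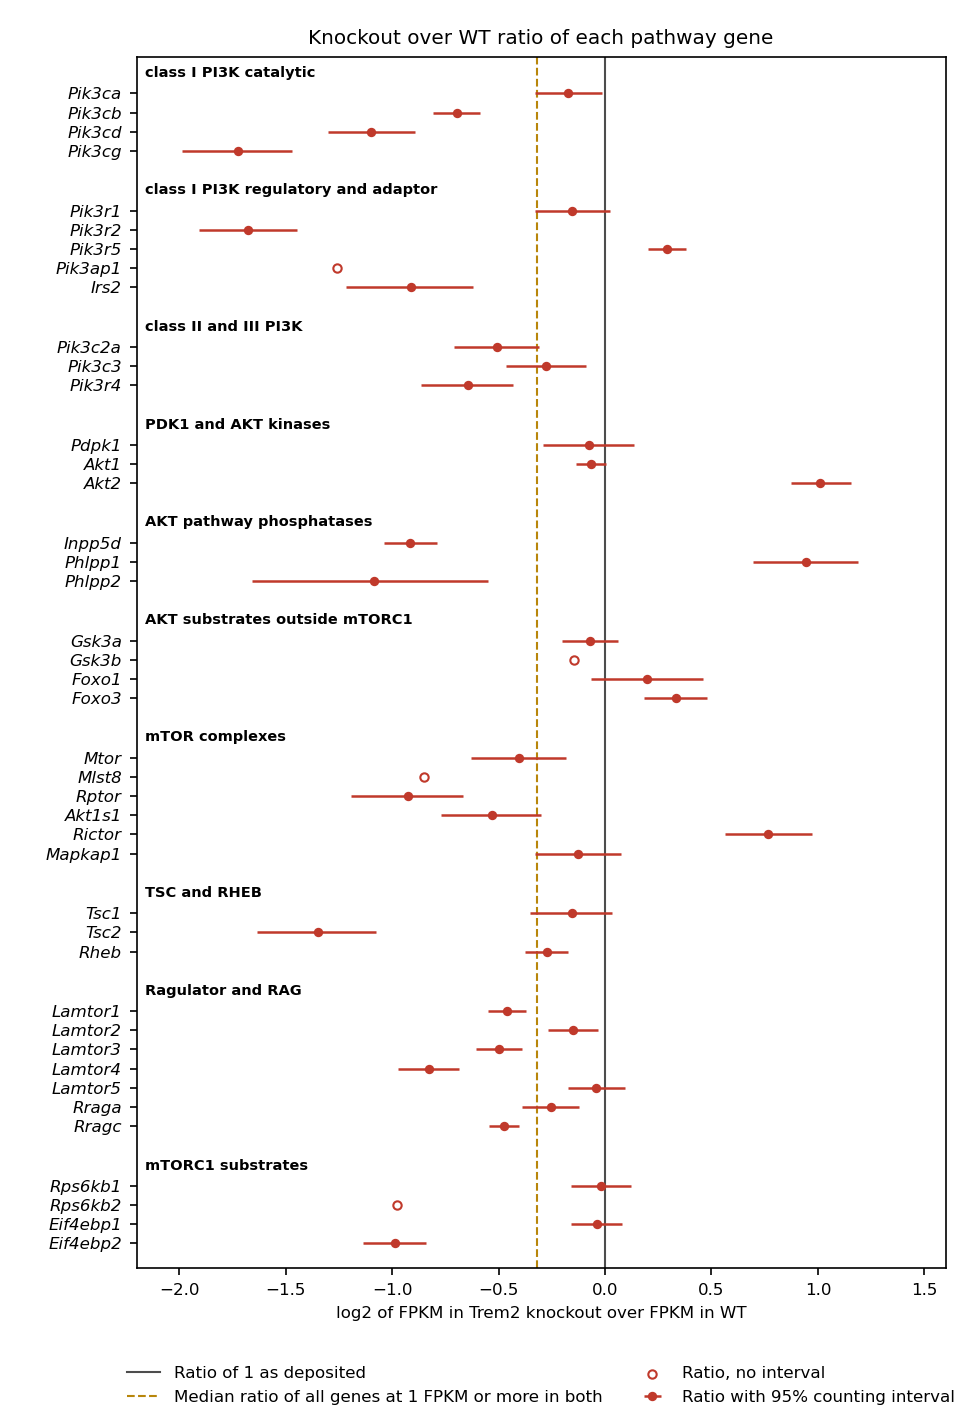
log2 of the knockout over WT ratio of FPKM for each listed component (points), with bars for exact 95% counting intervals where a gene length was matched and open points where not. Akt2, Phlpp1 and Rictor lie furthest right and Pik3cg, Pik3r2 and Tsc2 furthest left, and the dashed line marks the median ratio over genes with 1 FPKM or more in each library.

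Genes for AKT substrates outside mTORC1 showed small differences. Foxo3, a transcription factor that AKT keeps out of the nucleus, was at 8.79 FPKM in the knockout and 6.99 FPKM in WT, 1.26-fold higher (interval 1.14 to 1.39). Foxo1, its relative, was at 2.33 FPKM in the knockout and 2.03 FPKM in WT, with 1 inside its interval (0.955 to 1.37). The glycogen synthase kinase genes were nearly level. Gsk3a was at 24.8 FPKM in the knockout and 26.0 FPKM in WT (interval of the ratio 0.870 to 1.04), and 28.3% of its exon bases overlap an annotated gene on the other strand. Gsk3b was at 10.2 FPKM in the knockout and 11.2 FPKM in WT. All 4 lay above the median of all genes.

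The mTOR complexes split by subunit. Rictor (chr15:6708379-6800401, plus strand), the scaffold that defines mTORC2, the complex that phosphorylates AKT in its tail, was at 2.44 FPKM in the knockout and 1.43 FPKM in WT, 1.70-fold higher (interval 1.48 to 1.96). Rptor (chr11:119602905-119899576, plus strand), the scaffold that defines mTORC1, was at 1.08 FPKM in the knockout and 2.06 FPKM in WT, 1.90-fold lower (interval 1.59 to 2.29). Rictor was thus the more abundant of the pair in the knockout and Rptor in WT. Mtor, the shared kinase, was at 2.26 FPKM in the knockout and 2.99 FPKM in WT, 1.32-fold lower (interval 1.13 to 1.54). Mlst8, a shared subunit, was at 2.09 FPKM in the knockout and 3.76 FPKM in WT, 1.80-fold lower with no interval. Akt1s1 (PRAS40), an mTORC1 inhibitor that AKT phosphorylates, was at 6.43 FPKM in the knockout and 9.30 FPKM in WT, 1.45-fold lower (interval 1.23 to 1.71). Mapkap1 (SIN1), the other mTORC2 subunit examined, was at 7.28 FPKM in the knockout and 7.94 FPKM in WT, with 1 inside its interval (0.795 to 1.06).

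Of the genes between AKT and mTORC1, Tsc2 stood lowest. Tsc2 (chr17:24595816-24632630, minus strand), tuberin, the subunit that switches RHEB off, was at 1.23 FPKM in the knockout and 3.14 FPKM in WT, 2.55-fold lower (interval 2.11 to 3.10). On the log2(FPKM + 1) scale this is -0.89, under 2-fold, and 7.20% of its exon bases overlap Pkd1 on the other strand. Tsc1 (hamartin), its partner, was at 2.78 FPKM in the knockout and 3.10 FPKM in WT, with 1 inside its interval (0.785 to 1.02). Rheb, the GTPase that activates mTORC1, was at 14.9 FPKM in the knockout and 18.1 FPKM in WT, 1.21-fold lower (interval 1.13 to 1.30).

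The Ragulator and RAG genes, which tether mTORC1 to the lysosome, were the most abundant group. All 7 examined were lower in the knockout by sign and none reached 2-fold, with log2 fold changes from -0.81 to -0.04, and 3 of the 7 lay above the all-gene median. A further RAG gene outside the 43, Rragd, named after its values were seen, was at 19.6 FPKM in the knockout and 10.1 FPKM in WT, 1.93-fold higher (interval 1.76 to 2.12). Lamtor4 was at 37.0 FPKM in the knockout and 65.7 FPKM in WT, 1.78-fold lower (interval 1.61 to 1.96). Lamtor5 was at 78.5 FPKM in the knockout and 80.7 FPKM in WT, with 1 inside its interval (0.885 to 1.07). These proteins form 1 pentamer, yet their RNAs did not keep 1 ratio to each other. Lamtor4 made up 14.8% of the summed level of the 5 Lamtor genes in the knockout and 20.9% in WT, and Lamtor5 31.3% in the knockout and 25.7% in WT. Lamtor1, the lipid-anchored subunit, was at 43.0 FPKM in the knockout and 59.1 FPKM in WT, 1.37-fold lower (interval 1.29 to 1.46), and 18.7% of its exon bases overlap Lrrc51 on the other strand. Lamtor2 was at 70.2 FPKM in the knockout and 77.9 FPKM in WT, and Lamtor3 at 22.0 FPKM in the knockout and 31.0 FPKM in WT. Of the GTPases, Rragc was at 67.3 FPKM in the knockout and 93.5 FPKM in WT, 1.39-fold lower (interval 1.32 to 1.46), and Rraga at 39.1 FPKM in the knockout and 46.7 FPKM in WT, 1.19-fold lower (interval 1.09 to 1.31).

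The mTORC1 substrates formed 2 pairs of relatives, each with 1 gene near its WT level as deposited and 1 below it. Eif4ebp1, which holds back cap-dependent translation until mTORC1 phosphorylates it, was at 39.9 FPKM in the knockout and 41.0 FPKM in WT (interval of the ratio 0.897 to 1.06). Its relative Eif4ebp2 was at 7.45 FPKM in the knockout and 14.8 FPKM in WT, 1.98-fold lower (interval 1.79 to 2.20). Rps6kb1, the S6 kinase that acts on ribosomal protein S6, was at 7.23 FPKM in the knockout and 7.32 FPKM in WT (interval of the ratio 0.895 to 1.09). Rps6kb2, the second S6 kinase, was at 3.35 FPKM in the knockout and 6.59 FPKM in WT, 1.97-fold lower with no interval. Centred, Eif4ebp1 was at 0.27 and Rps6kb1 at 0.29, and Eif4ebp2 at -0.59 and Rps6kb2 at -0.50.

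The class II and III lipid kinases lie outside the AKT branch. Pik3c3 (VPS34), which makes the lipid that starts autophagosomes, was at 7.41 FPKM in the knockout and 8.97 FPKM in WT, 1.21-fold lower (interval 1.06 to 1.38). Its partner Pik3r4 (VPS15) was at 2.35 FPKM in the knockout and 3.68 FPKM in WT, 1.56-fold lower (interval 1.35 to 1.82). Pik3c2a, a class II enzyme of endosomes, was at 2.48 FPKM in the knockout and 3.53 FPKM in WT, 1.42-fold lower (interval 1.24 to 1.63), and 12.3% of its exon bases overlap a gene on the other strand.

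Ratios between 2 genes of the same library do not depend on the scaling between libraries. They were taken for 12 pairs of relatives or partners, in alphabetical order and chosen with the values known. The interval of the difference left out 1 in 9 of the 10 pairs that had one. It covers counting error only, no share for other pairs was computed, and nothing is read from that count. Akt1 over Akt2 was 4.51 in the knockout and 9.53 in WT, 2.11-fold lower (interval 1.89 to 2.36). Rictor over Rptor was 2.25 in the knockout and 0.696 in WT, 3.23-fold higher (interval 2.57 to 4.09). Pik3cg over its partner Pik3r5 was 0.0472 in the knockout and 0.191 in WT, 4.04-fold lower (interval 3.36 to 4.90). The ratio of Pik3cg to Pik3r6 was not taken. Phlpp1 over Phlpp2 was 11.6 in the knockout and 2.84 in WT, 4.08-fold higher (interval 2.70 to 6.29). This was the widest shift in balance of the 12 pairs, on the fewest fragments. Pik3r1 over Pik3r2 was 0.986 in the knockout and 0.343 in WT, 2.87-fold higher (interval 2.35 to 3.51). Tsc1 over Tsc2 was 2.25 in the knockout and 0.987 in WT, 2.28-fold higher (interval 1.81 to 2.90). Eif4ebp1 over Eif4ebp2 was 5.35 in the knockout and 2.77 in WT, 1.93-fold higher (interval 1.69 to 2.21). The pair whose interval held 1 was Foxo1 over Foxo3, at 0.265 in the knockout and 0.291 in WT.

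**Figure D4:**
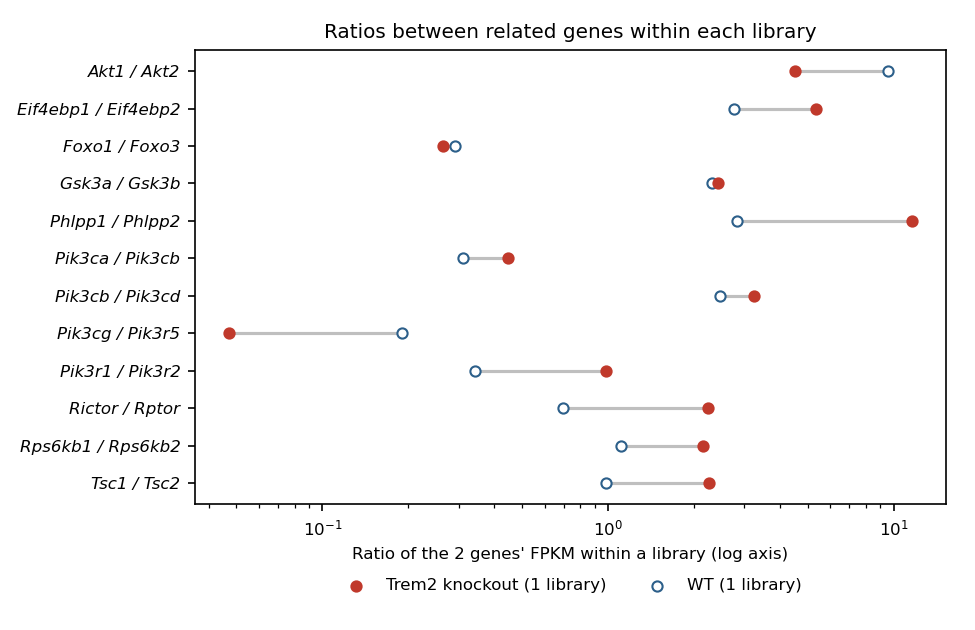
Ratio of the FPKM of 2 related genes within a library (log axis) for 12 pairs, with a filled point for the Trem2 knockout and an open point for WT (1 library each). The points lie apart for Rictor over Rptor (2.25 in the knockout, 0.696 in WT), Pik3cg over Pik3r5 (0.0472 in the knockout, 0.191 in WT) and Phlpp1 over Phlpp2 (11.6 in the knockout, 2.84 in WT), and close together for Foxo1 over Foxo3 and Gsk3a over Gsk3b.

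A wider set of 206 genes around these components, in 10 lists, had 174 measured, with 4 at least 2-fold higher in the knockout and 24 lower, or 14 higher and 17 lower centred, beside the shares of all genes given above. Its median log2 fold change was -0.32, against -0.31 for all genes. Upstream receptors had 0 of 14 higher and 5 lower. Among receptor-proximal adaptors and kinases 1 of 23 was higher, Grb2, an adaptor that couples receptors to RAS and PI3K, at 167 FPKM in the knockout and 58.4 FPKM in WT, 2.86-fold higher (interval 2.73 to 3.01). The 4 lower as deposited (2 centred) included Trem2 itself and the phosphatase gene Ptpn6 (24.8 FPKM in the knockout, 58.0 FPKM in WT). Plcg2, a phospholipase that uses the same lipid as PI3K, was also among the 4, at 9.04 FPKM in the knockout and 22.8 FPKM in WT. Other PI3K subunits and inhibitors had 0 of 6 past 2-fold in either direction, and phosphoinositide phosphatases and kinases 1 of 26, Inpp5b, which was lower (2.08 FPKM in the knockout, 9.82 FPKM in WT).

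AKT regulators had 0 of 18 higher and 3 lower, both as deposited and centred, where 13.7% and 6.57% of all genes were lower. Trib3, a pseudokinase that binds AKT and is known as a target of the stress factor ATF4, was at 2.47 FPKM in the knockout and 28.0 FPKM in WT, 11.3-fold lower (interval 8.81 to 14.8). Other AKT and SGK substrates had 0 of 12 past 2-fold, and 2 past it on the centred scale, the cell cycle inhibitors Cdkn1a (120 FPKM in the knockout, 65.2 FPKM in WT) and Cdkn1b (17.1 FPKM in the knockout, 10.2 FPKM in WT). Amino acid sensing genes had 0 of 18 higher and 4 lower, or 1 higher and 2 lower centred. Among these Sesn2, a leucine sensor and stress gene, was at 1.47 FPKM in the knockout and 15.5 FPKM in WT, 10.5-fold lower (interval 8.19 to 13.9). Slc3a2, a shared chain of amino acid transporters, was at 62.8 FPKM in the knockout and 141 FPKM in WT. Other mTOR complex and TSC regulators had 0 of 15 higher and 1 lower, Rps6ka1.

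Outputs of the pathway stood on both sides of WT. Of 27 mTORC1 outputs 1 was higher as deposited (3.48% of all genes were), the translation factor gene Eif4b (295 FPKM in the knockout, 113 FPKM in WT), and 3 were lower (13.7% of all genes were), among them Atf4 (103 FPKM in the knockout, 294 FPKM in WT) and Mthfd2, a mitochondrial folate enzyme (15.3 FPKM in the knockout, 55.7 FPKM in WT). On the centred scale 5 were higher, Rps6, Hif1a, Srebf2 and Eef2 being the others, and 3 lower, where 7.66% and 6.57% of all genes were. Of 20 genes known as FOXO targets 2 were higher and 5 lower as deposited, where 3.48% and 13.7% of all genes were. Centred, 5 were higher and 4 lower, where 7.66% and 6.57% of all genes were. Txnip, a regulator of glucose uptake, was at 295 FPKM in the knockout and 69.2 FPKM in WT, 4.27-fold higher (interval 4.10 to 4.45), and the receptor gene S1pr1 was at 6.83 FPKM in the knockout and 26.2 FPKM in WT. Klf2, a transcription factor that FOXO1 activates in T cells, was at 1.25 FPKM in the knockout and 6.24 FPKM in WT. Hspa1b, the chaperone gene of the series title, was at 483 FPKM in the knockout and 2.30 FPKM in WT, and its near-identical neighbour Hspa1a at 486 FPKM in the knockout and 2.42 FPKM in WT, so reads could be split between them. No component approached that difference.

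At the deposited scaling 22 of the 37 measured components with an interval lay below WT beyond counting error, where 57.9% of all genes with an interval did, and 5 lay above (Pik3r5, Akt2, Phlpp1, Foxo3 and Rictor), where 23.0% did. With the median ratio of genes reaching 1 FPKM in each library set to 1, 14 lay below, where 41.0% of all genes did, and 13 above, where 37.1% did. The share below was thus close to that of all genes on both scales. The share above was under that of all genes as deposited, and close to it with the median ratio set to 1. The 6 components higher in the knockout as deposited (Akt2, Phlpp1, Rictor, Foxo3, Pik3r5 and Foxo1) were so under all 9 alternative settings that gave a value, and 19 were lower in all of them. Most of this was fixed in advance, since other pseudocounts and filters cannot change a direction. For the 6, the median of ratios, the trimmed mean and the centred setting could only raise the value. For the 19, rescaling to a common sum could only lower it. The direction of the other 16, Akt1, Mtor and Rheb among them, changed with the scaling.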

How the data were processed

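RNA of 2 libraries was sequenced from strand-marked (dUTP) libraries, per the labels' protocols. The authors deposited 1 FPKM value per gene and library, per the file headers, and mm10 is the build in the submitters' processing notes. The aligner, quantifier, annotation, strand setting and any further scaling were not given in the sources used here. No listed gene was under 0.501 FPKM in both libraries, and genes below that were not used here.

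Groups were taken from sample titles. With 1 added to each FPKM value, log2 ratios of knockout over WT were taken for genes averaging 1 FPKM or more, which understates changes of low genes. Genes were counted at 2-fold, because 1 library per group allows no test. Of 11349 IDs 9914 matched GENCODE release M21 by version and position. FPKM times exon length of single-transcript genes was a whole multiple of a step, to 0.1 steps, for 69.9% of 133 low knockout values and 56.0% of 91 low WT values, and 300 steps were taken as 1 fragment. These depths are estimates, used for intervals only (Clopper-Pearson for a ratio, conditional exact for a ratio of ratios). Overlapping genes could share reads in 11 components. All lay on the other strand but Mir707, which overlaps Akt1s1 on the same strand.

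The components, gene lists, markers and pairs were chosen with earlier results of these data known. Named genes are all listed components, Trem2, Tyrobp, Hspa1a and Hspa1b, the leading marker of another cell type, and from each wider list up to 4 genes with the largest absolute fold change, some of which are not reported here. Ptpn6, Fcgr1, Itgam, Rragd, Pik3r6 and the mTORC1 outputs named without values were named after their values were seen. Promoters came from RefSeq, of which 38 of 42 components had one (not Eif4ebp1, Lamtor3, Pik3c3 or Rps6kb2). Alternatives were other pseudocounts, filters, scalings and thresholds, list means, and removal of GC and length trends. The steps were tested on simulated data. Tables were handled in Python 3.11.15 with pandas 2.3.3 and numpy 2.4.6. Intervals came from scipy 1.17.1, trends from statsmodels 0.14.6 and plots from matplotlib 3.10.9.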

Additional observations from a re-analysis of the deposited data

How the results depend on the processing

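The limits are those of 1 library per group, an undocumented scaling and RNA without protein. No paired analysis was possible because there was 1 library a group. The count of components at least 2-fold higher in the knockout, 0 as reported, was 1 with a pseudocount of 0.1 FPKM (Akt2), 1 with the median of ratios set to 1, 1 with a trimmed mean of log ratios, 2 at a 1.5-fold threshold and 2 centred on the all-gene median (Akt2 and Phlpp1), a setting added after seeing the data. The count lower, 3 as reported, was 5 with a pseudocount of 0.1 FPKM, 1 with one of 5 FPKM, 5 after rescaling to a common summed FPKM, 2 with the median of ratios set to 1, the trimmed mean or a mean of 5 FPKM or more, 12 at 1.5-fold, 0 at 4-fold and 1 centred. The components' median, -0.26 as reported, was -0.41 after rescaling to a common sum, 0.0390 with the median of ratios set to 1, 0.0412 with the trimmed mean and 0.0473 centred, where subtracting a negative median turns the sign. Other filters, the mean in place of the median (-0.33) and removal of GC and length trends (-0.34, over 37 components) moved it by less than 0.1. Of the single components, Pik3ap1 was within 2-fold with the median of ratios (-0.91), the trimmed mean (-0.90) and centred (-0.90), Pik3r2 with a pseudocount of 5 FPKM (-0.98), and Pik3cg with that pseudocount (-0.63) and centred (-0.96). Of all genes past 2-fold, 20.3% were higher in the knockout as deposited, 12.5% after rescaling to a common sum, 47.7% with the median of ratios set to 1 and 48.0% with the trimmed mean. Lamtor4 passed 2-fold with GC and length trends removed (-1.08), where Lamtor2 was at -0.59 and Lamtor5 at -0.39, and Pik3ap1 had no value. Akt2 ran from 0.66 with a pseudocount of 5 FPKM to 1.22 centred.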
